A study of Mus musculus with 6 samples.

Results

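Most Ube2 genes encode ubiquitin-conjugating (E2) enzymes, and RNA of the Ube2 genes was measured in adenomas from the small intestine of *Apc*Min mice, with or without deletion of Paneth cells (PCs). A gene was a member if its name in the deposited tables begins with Ube2 and does not contain the pseudogene mark -ps, which gave 40 of 48440 genes. This rule goes by name alone, so a member need not itself be an E2. The pair set against the others, *Ube2g2* and *Ube2e3*, was selected on its values in this very comparison, so those values are given as a description, without a test.

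Adenoma RNA was sequenced as 6 libraries, of which QC3, QC8 and QC10 are *Apc*Min, PCdel and QC4, QC5 and QC6 are *Apc*Min without PC deletion (WT), all on a C57BL/6 background and from mice older than 42 days. By the methods of the study, every mouse carried the *Apc*Min allele and 1 copy of a Rosa26 allele (iDTA) that makes diphtheria toxin A after Cre recombination. PCdel mice also carried Cre knocked into the *Defa4* locus, so the toxin was made in cells of the PC lineage, while their littermates had no Cre. The knock-in was made in 129/svJ embryonic stem cells and backcrossed, both sexes were used, and the labels do not say whether a library holds 1 mouse or pooled adenomas. The p-values therefore measure only the spread between these libraries. The data are from whole adenomas, in which fewer cells of a type and less RNA per cell cannot be told apart.

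Ubiquitin is passed from an activating enzyme (E1) to the catalytic cysteine of an E2 and then, with a ligase (E3), to a protein. The E2 largely sets which lysine of ubiquitin is used to build a chain, and chains through lysine 48 mark proteins for the proteasome, while chains through lysine 63 serve signaling and DNA repair. Some family members carry a ubiquitin-like protein in place of ubiquitin, and inactive variants help an active partner. In the intestine this system limits β-catenin, which is the protein that the *Apc* mutation leaves undegraded.

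The stretch of coding sequence around the catalytic cysteine is among the most conserved in the family, and it is shown for *Ube2g2*, *Ube2e3* and *Ube2a* beside their like-named relatives, since short reads must tell these genes apart. The sequences are spliced coding DNA of 51 bases on the sense strand, read from GENCODE M21 transcripts on GRCm38. Capitals mark the conserved His-Pro-Asn codons (His-Cys-Asn in the Ube2e genes) and the codon of the catalytic cysteine. The coordinates include the intron where the stretch spans 2 exons.
*Ube2g2*, chr10:77641569-77643509, plus strand, 2 exons: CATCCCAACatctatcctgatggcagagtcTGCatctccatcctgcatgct
*Ube2g1*, chr11:72673048-72677745, plus strand, 2 exons: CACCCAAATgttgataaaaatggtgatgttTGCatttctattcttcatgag
*Ube2e3*, chr2:78918711-78918761, plus strand, 1 exon: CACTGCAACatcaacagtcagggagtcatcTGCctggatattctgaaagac
*Ube2e1*, chr14:18284347-18284397, minus strand, 1 exon: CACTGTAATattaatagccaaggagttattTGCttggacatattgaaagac
*Ube2e2*, chr14:18586924-18586974, minus strand, 1 exon: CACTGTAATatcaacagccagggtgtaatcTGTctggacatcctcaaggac
*Ube2a*, chrX:36881737-36882639, plus strand, 2 exons: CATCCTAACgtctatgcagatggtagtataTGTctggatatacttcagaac
*Ube2b*, chr11:51988660-51991403, minus strand, 2 exons: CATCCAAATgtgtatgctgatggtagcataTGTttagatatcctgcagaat
*Ube2g2* and *Ube2g1* differed at 21 of the 51 bases. *Ube2e3* differed from *Ube2e1* at 12 and from *Ube2e2* at 10, and *Ube2a* from *Ube2b* at 10. Across their whole annotated transcripts, 1.27% of the 31-base stretches of *Ube2e3* and 0.0% of those of *Ube2a* also occurred in another gene. For *Ube2g2* this share was 7.63%, most of it (5.46%) with *Gm49325*, a GENCODE gene that is not a row of the deposited tables.

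Levels are given as FPKM (fragments per kilobase of exon, adjusted for the size of the library), which takes the length of the transcripts to which fragments are assigned into account. Between 5.407 and 5.876 gigabases were aligned per library. The WT library QC6 stood apart from the others, with an array quality weight of 0.237 in limma (0.634 to 3.09 in the other 5) and *Apoa4*, an enterocyte gene, at 7440.3 FPKM (1403 to 2436 in the other 5). Without QC6, the log2 fold changes of *Ube2g2*, *Ube2e3* and *Ube2a* described next were -1.43, 1.03 and -0.63.

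Of the 40 members, 34 were above 0 in each of the 6 libraries. The other 6 (*Ube2d2b*, *Ube2d4*, *Ube2u*, the antisense RNA *Ube2uos*, *Ube2dnl1* and *Ube2dnl2*) were listed at 0 throughout. *Ube2nl* and *Ube2ql1*, with mean FPKM of 0.38 and 0.128, were below the mean FPKM of 1 set for testing, which left 32 members tested.

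By FPKM the family was led by *Ube2d3*, an E2 that works with many ligases, with a mean of 145 FPKM. *Ube2c*, the E2 that starts chains for the anaphase-promoting complex in dividing cells, reached 80.6 FPKM. *Ube2m*, which carries NEDD8 to cullins, and *Ube2b*, a RAD6-type E2, had means of 52.6 and 49.3 FPKM. *Ube2m* and *Ube2b* did not differ beyond their spread over libraries (46.03 to 57.5 and 46.2 to 52.4 FPKM). The 5 most abundant members held 42.6% of all Ube2 FPKM. This order was not that of the read coverage per gigabase aligned, which was 7.08 to 11.6 for *Ube2d3*, 24.5 to 34.5 for *Ube2c* and 37.6 to 41.9 for *Ube2b*. Summed over the family, the FPKM was 1027, 1037 and 970.4 in QC4, QC5 and QC6, and 968, 968 and 971 in QC3, QC8 and QC10. The family's total thus lay in a narrow range, with 1 WT library at the level of the PCdel libraries.

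**Figure D1:**
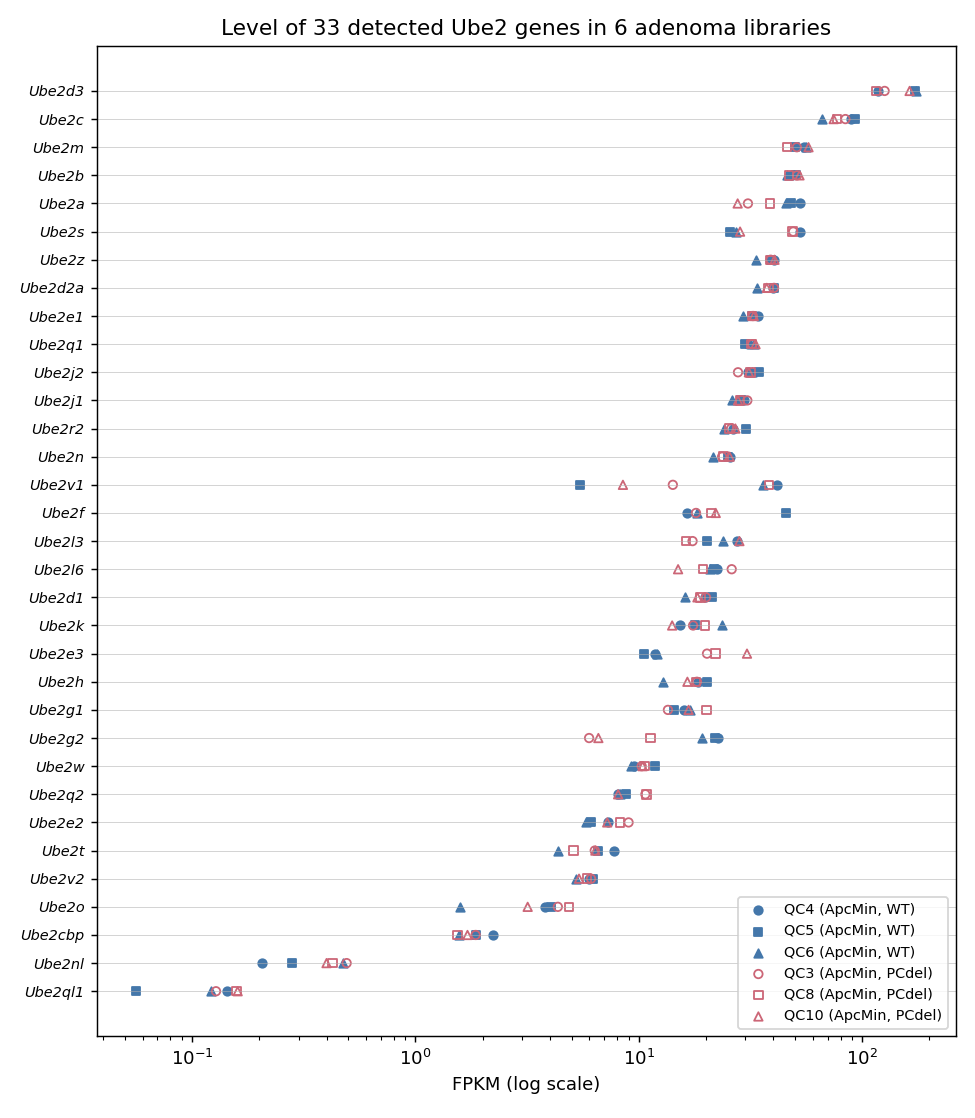
FPKM (log scale) of 33 detected Ube2 genes, ordered by mean level, with 1 point per library (filled, *Apc*Min, WT; open, *Apc*Min, PCdel). The filled and open points separate for *Ube2g2*, *Ube2e3* and *Ube2a*, and *Ube2v1* ranges from 5.47 to 41.5 FPKM within the WT libraries alone.

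*Ube2g2* (ENSMUSG00000009293.17, chromosome 10, 77622275 to 77645993, plus strand) encodes an E2 that builds lysine 48 chains in the degradation of misfolded proteins from the endoplasmic reticulum (ERAD). It was at 22.7, 21.9 and 19.2 FPKM in QC4, QC5 and QC6, and at 5.99, 11.3 and 6.59 FPKM in QC3, QC8 and QC10. All PCdel libraries were below all WT libraries, with QC8 the highest of the PCdel libraries. The group means were 21.3 ± 1.83 and 7.95 ± 2.89 FPKM (SD, n = 3), a log2 fold change of -1.36 on the log2(FPKM + 1) scale used throughout. Its share of all Ube2 FPKM was 1.98% to 2.21% in WT adenomas and 0.619% to 1.16% in PCdel adenomas. In all, 35 of the 14240 genes tested had a log2 fold change as low or lower.

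The lower level of *Ube2g2* was also seen in the mean read coverage of the gene. Scaled to the gigabases aligned in each library, coverage was 18.6, 17.7 and 15.7 in QC4, QC5 and QC6, and 4.51, 8.99 and 4.39 in QC3, QC8 and QC10. The libraries fell in the same groups, and the log2 fold change of the coverage was -1.46. *Sumo3*, which overlaps *Ube2g2* on the same strand without sharing exonic bases, was at 52.6, 55.1 and 49.1 FPKM in the WT libraries and 54.3, 49.8 and 57.5 FPKM in the PCdel libraries, so its groups overlapped. The 9 tested genes within 500 kb of *Ube2g2* had log2 fold changes of -0.09 to 0.35, and in none of them were the groups apart.

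*Ube2e3* (ENSMUSG00000027011.14, chromosome 2, 78868124 to 78921293, plus strand) is a Ube2e-type E2, a class with an extended amino terminus. It was at 11.8, 10.6 and 12.04 FPKM in QC4, QC5 and QC6, and at 20.2, 22 and 30.5 FPKM in QC3, QC8 and QC10. All PCdel libraries were above all WT libraries, and QC10 was the highest. The means were 11.5 ± 0.78 and 24.3 ± 5.51 FPKM (SD, n = 3), and the log2 fold change was 1.0. Among the 14240 genes, 47 had a log2 fold change as high or higher. Its share of Ube2 FPKM was 1.02% to 1.24% in WT and 2.09% to 3.14% in PCdel adenomas, so *Ube2e3* passed *Ube2g2* in every PCdel library and was below it in every WT library.

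The coverage of *Ube2e3* showed a smaller difference than its FPKM. Per gigabase aligned it was 4.89, 4.13 and 4.61 in the WT libraries and 8.30, 6.60 and 8.88 in the PCdel libraries. The groups stayed apart, with a log2 fold change of 0.68. FPKM was 2.42, 2.57 and 2.61 times the scaled coverage in QC4, QC5 and QC6, 2.44 times in QC3, and 3.33 and 3.44 times in QC8 and QC10. GENCODE lists 7 transcripts of *Ube2e3* of 504 to 2249 bases, and FPKM depends on the lengths of those to which reads are assigned. Whether transcript use differed was not tested.

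The like-named relatives of this pair had no difference of like size. *Ube2g1*, which also builds lysine 48 chains, was at 16, 14.4 and 16.96 FPKM in WT and 13.5, 20.1 and 16.7 FPKM in PCdel libraries, a log2 fold change of 0.07 ± 0.16 (SE). *Ube2e1* was at 34.1, 32.1 and 29.3 FPKM in WT and 32.4, 32.05 and 32.7 FPKM in PCdel libraries (log2 fold change 0.03 ± 0.10, SE). The groups overlapped for both genes, and the sign of either small difference turned under some other settings. Summed, *Ube2g1* and *Ube2g2* came to 38.7, 36.3 and 36.2 FPKM in the WT and 19.5, 31.4 and 23.2 FPKM in the PCdel libraries. The Ube2e genes together came to 53.2, 48.8 and 47.2 FPKM and to 61.6, 62.3 and 70.5 FPKM. Both sums had the direction of *Ube2g2* and *Ube2e3*, at a smaller size (log2 fold changes of -0.59 and 0.37).

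*Ube2e2* was at 7.26, 6.11 and 5.83 FPKM in WT and 8.998, 8.22 and 7.22 FPKM in PCdel libraries. The lowest PCdel library was just under the highest WT library. Its log2 fold change of 0.31 had an unadjusted limma p of 0.0445 and a Benjamini-Hochberg adjusted p of 1.0. Its coverage per gigabase was only 0.102, 0.0958 and 0.0684 in WT and 0.0935, 0.106 and 0.109 in PCdel libraries, too low for a fold change on the log2(coverage + 1) scale to be read. The groups overlapped there too.

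**Figure D2:**
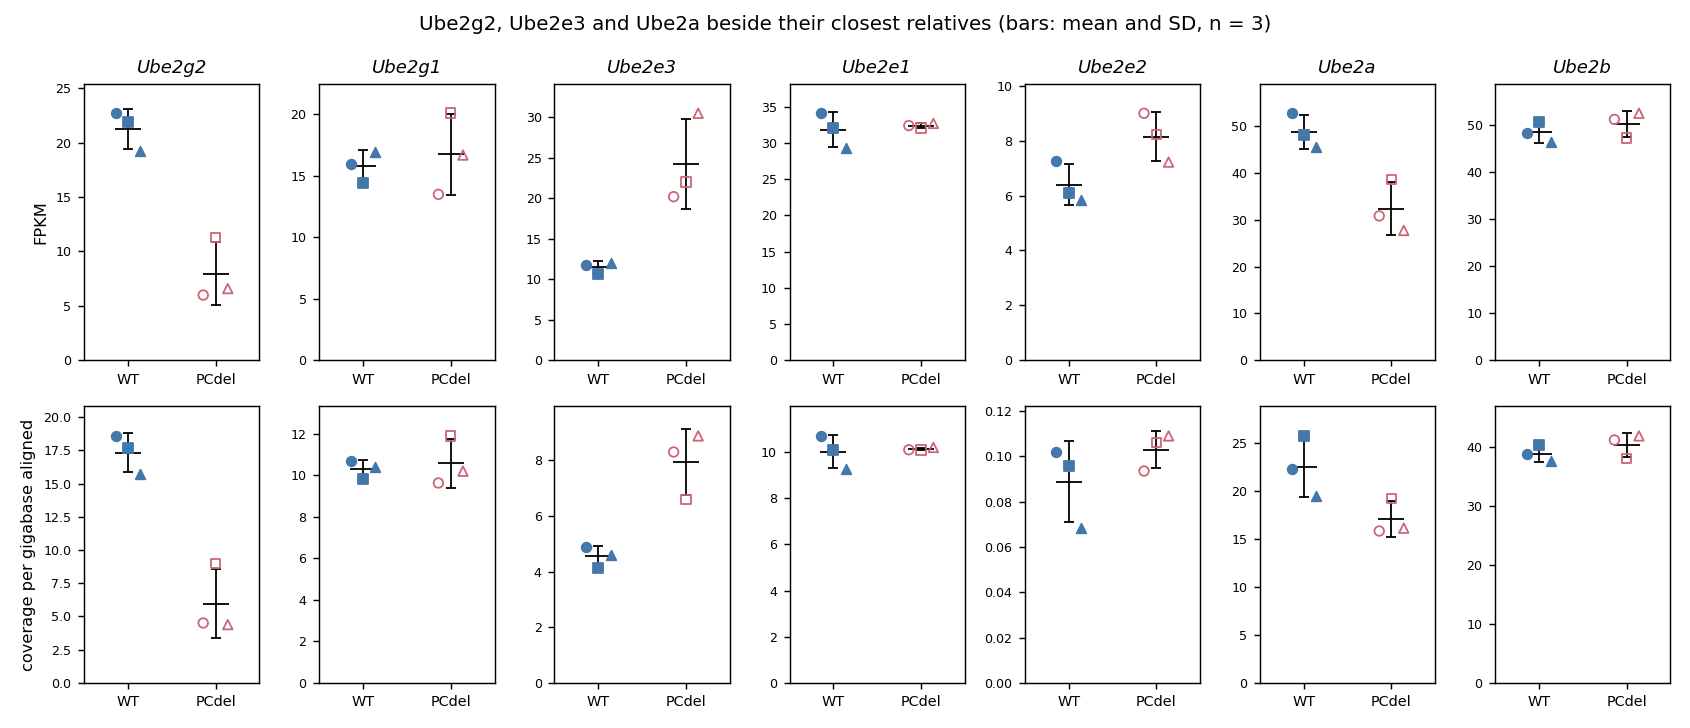
FPKM (upper row) and read coverage per gigabase aligned (lower row) of *Ube2g2*, *Ube2e3* and *Ube2a* and of their relatives, 1 point per library (circles, QC4 and QC3; squares, QC5 and QC8; triangles, QC6 and QC10), with mean and SD (n = 3). Groups are apart in both rows for *Ube2g2*, *Ube2e3* and *Ube2a*, and overlap for *Ube2g1*, *Ube2e1*, *Ube2e2* and *Ube2b*.

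Against this pair, the other 30 tested members showed small differences. By limma with Benjamini-Hochberg adjustment, 0 of them passed the threshold of 0.05, where the background over all genes tested was 0.0140% (2 genes). At an unadjusted p under 0.05 there were 2, *Ube2a* and *Ube2e2* (6.67%, against 3.38% of all genes tested). Of these, 1 was higher and 1 lower in PCdel adenomas, where 2.7% of all genes were higher and 0.681% lower at that level. That split over all genes was 384 higher and 97 lower, and became 261 and 182 after quantile normalization and 277 and 174 after median centring. The groups did not overlap in 1 of the 30 (3.33%, against 7.54% of all genes tested), which was lower in PCdel adenomas (1.54% of all genes). Over all 32 tested members, with the selected pair included, 3 were apart, 1 of them higher in PCdel adenomas (6% of all genes).

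The log2 fold changes of these 30 members ran from -0.59 to 0.35 with a median of 0.01, and that of all genes tested was 0.04. There were 16 above and 14 below 0. A log2 fold change within 0.1 of 0 was seen in 19 of the 30 (63.3%) and in 52.7% of all genes tested.

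**Figure D3:**
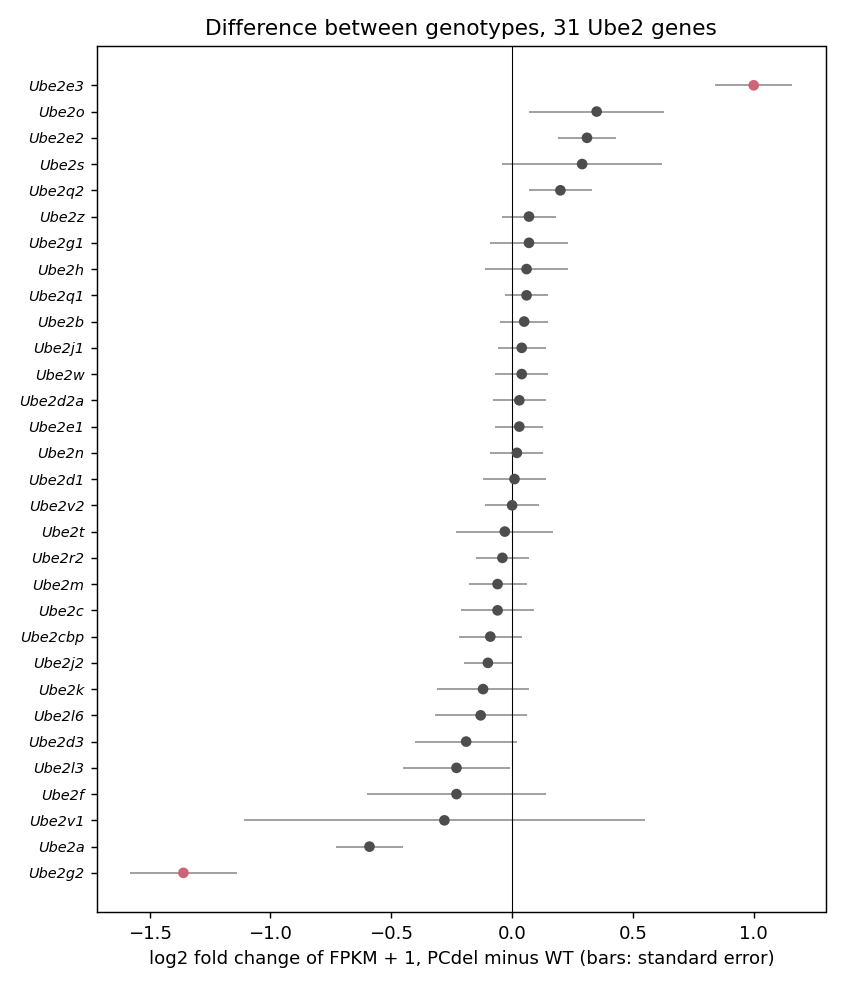
Log2 fold change of FPKM + 1 (PCdel minus WT) of 31 tested Ube2 genes, with the standard error from limma as bars. *Ube2g2* and *Ube2e3* (red, selected on these values) lie at -1.36 and 1.0, and the other genes shown between -0.59 and 0.35.

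The lowest of the others was *Ube2a* (ENSMUSG00000016308.12, chromosome X, 36873900 to 36884222, plus strand), a RAD6-type E2 that attaches single ubiquitins to histone H2B and to the sliding clamp PCNA. It was at 52.7, 47.99 and 45.5 FPKM in QC4, QC5 and QC6, and at 30.8, 38.6 and 27.7 FPKM in QC3, QC8 and QC10. All PCdel libraries were below all WT libraries. The means were 48.8 ± 3.66 and 32.4 ± 5.63 FPKM (SD, n = 3), with a log2 fold change of -0.59 ± 0.14 (SE). The unadjusted limma p was 0.00518, the adjusted p was 1.0, and the two-sided exact permutation p was 0.1, the smallest that 3 against 3 libraries allow. *Ube2a* thus did not pass the adjusted threshold, and 173 genes had a log2 fold change as low or lower. In coverage per gigabase the groups nearly met, at 22.3, 25.7 and 19.4 in WT and 15.8, 19.2 and 16.1 in PCdel libraries (log2 fold change -0.38).

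*Ube2b*, the other RAD6-type gene, was at 48.3, 50.6 and 46.2 FPKM in WT and 51.1, 47.1 and 52.4 FPKM in PCdel libraries, a log2 fold change of 0.05. In the WT libraries *Ube2a* and *Ube2b* had like levels, and in each PCdel library *Ube2a* was the lower. Their sum was 101, 98.6 and 91.7 FPKM in WT and 81.9, 85.7 and 80.1 FPKM in PCdel adenomas. The ligases that work with them on H2B, *Rnf20* and *Rnf40*, were at 12.5 to 15.9 and 10.9 to 12.5 FPKM in WT and at 15.99 to 19.8 and 12.5 to 13.7 FPKM in PCdel libraries. Both ligases had groups apart, but only narrowly. Neither passed limma's test (unadjusted p of 0.0781 and 0.238, adjusted p of 1.0 for both).

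Among the remaining E2 enzymes of lysine 48 chains, *Ube2j1* and *Ube2j2*, which are anchored in the membrane of the endoplasmic reticulum, had log2 fold changes of 0.04 and -0.10. Those of *Ube2k*, which extends lysine 48 chains, and *Ube2r2*, which works with cullin ligases, were -0.12 and -0.04. None of these 4 shared the size of the difference in *Ube2g2*.

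In the broadly acting group, the most abundant member *Ube2d3* was at 118, 172 and 175 FPKM in WT and 126, 115 and 163 FPKM in PCdel libraries. Its log2 fold change of -0.19 ± 0.21 (SE) was within the spread of the libraries. Log2 fold changes of *Ube2d1*, *Ube2d2a* and *Ube2w*, the last of which ubiquitinates amino termini, were 0.01, 0.03 and 0.04.

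Of the cell cycle members, *Ube2c* was at 89.1, 92.6 and 65.9 FPKM in WT and 84.1, 77.2 and 74.5 FPKM in PCdel libraries, with a log2 fold change of -0.06. *Ube2s*, which extends the chains that *Ube2c* starts, was at 52.6, 25.7 and 27.1 FPKM in WT and at 49.1, 48.8 and 28.4 FPKM in PCdel libraries. It fell into a high and a low level that crossed the genotypes, so its log2 fold change of 0.29 ± 0.33 (SE) was below its spread. *Rpl28* on the opposite strand shares 183 exonic bases with it, and strand use is not stated. *Ube2t*, of the Fanconi anemia repair pathway, had a log2 fold change of -0.03.

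The members that carry ubiquitin-like proteins included *Ube2m* and *Ube2f* (NEDD8), *Ube2l6* (ISG15) and *Ube2z*, which loads FAT10 as well as ubiquitin. Their log2 fold changes were -0.06, -0.23, -0.13 and 0.07. *Ube2f* was at 45.7 FPKM in the WT library QC5, at 16.5 and 18.2 FPKM in the other WT libraries, and at 18.03, 21.02 and 22.1 FPKM in the PCdel libraries. Its highest value by far was thus that of QC5, and the PCdel libraries lay near or above the other WT libraries. *Ube2l6* was at 20.8 to 22.5 FPKM in WT libraries and spread from 14.99 to 26.05 FPKM in PCdel libraries.

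Lysine 63 chains are built by *Ube2n* with an inactive partner, *Ube2v1* or *Ube2v2*. *Ube2n* was at 25.7, 25.2 and 21.4 FPKM in WT and 23.6, 23.9 and 25.5 FPKM in PCdel libraries, a log2 fold change of 0.02. *Ube2v1* was at 41.5, 5.47 and 35.9 FPKM in WT and 14.2, 38.3 and 8.49 FPKM in PCdel libraries. Libraries of both genotypes were high or low, and the log2 fold change of -0.28 ± 0.83 (SE) had the widest error of the family and turned positive in 4 other settings. *Gm20431*, a gene of the same strand that shares 1673 exonic bases with *Ube2v1*, was listed at 0 in QC4, QC6 and QC8 and at 19.8, 19.4 and 21.2 FPKM in QC5, QC3 and QC10. It was above 0 exactly where *Ube2v1* was low. The sum of both was 41.5, 25.2 and 35.9 FPKM in WT and 33.6, 38.3 and 29.7 FPKM in PCdel libraries, with a log2 fold change of 0.01. How reads were divided between the 2 genes was not tested.

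**Figure D4:**
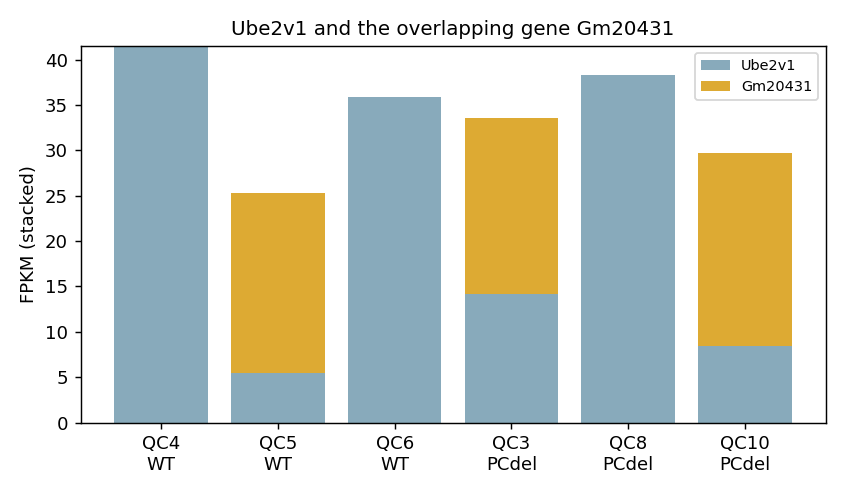
FPKM of *Ube2v1* (lower bars) and of the overlapping gene *Gm20431* (stacked on top) in each library. *Gm20431* is at 0 in QC4, QC6 and QC8, where *Ube2v1* is at 35.9 to 41.5 FPKM, and the stacks run from 25.2 to 41.5 FPKM.

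*Ube2l3*, the E2 of HECT and RBR ligases, was at 27.4, 20.1 and 23.8 FPKM in WT and 17.4, 16.3 and 28.2 FPKM in PCdel libraries, with a log2 fold change of -0.23. The groups overlapped, and *Ydjc* on the opposite strand shares 1670 exonic bases with it. The highest log2 fold change outside *Ube2e3* was that of *Ube2o*, a large enzyme with both E2 and E3 activity, at 3.82, 4.04 and 1.58 FPKM in WT and 4.34, 4.87 and 3.18 FPKM in PCdel libraries. Its log2 fold change of 0.35 ± 0.28 (SE) had an unadjusted limma p of 0.249 and went to 0.04 without QC6, where it was lowest. *Ube2q2*, *Ube2q1* and *Ube2h*, whose substrates are less well known, had log2 fold changes of 0.20, 0.06 and 0.06, and *Ube2cbp* was at -0.09.

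The wider ubiquitin system was read from 11 lists of 204 genes, 201 of them tested. By limma, 0 passed the adjusted threshold, and 5 had an unadjusted p under 0.05, all higher in PCdel adenomas (2.7% of all genes tested were higher at that level). The groups were apart in 11 genes that were higher and in 3 that were lower, beside 6% and 1.54% of all genes tested. The median log2 fold change was 0.05, next to 0.04 over all genes tested.

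The ERAD list, in which *Ube2g2* acts, had 26 tested genes with a median of 0.04 and none with groups apart. *Sel1l*, a scaffold of the ERAD ligase *Syvn1*, was at 29.3, 15.8 and 18.3 FPKM in WT and 35.3, 31.9 and 25.9 FPKM in PCdel libraries (log2 fold change 0.57, unadjusted limma p 0.0489, adjusted p 1.0). *Vcp*, the ATPase that pulls ERAD substrates out of the membrane, and *Herpud1* had log2 fold changes of 0.08 and 0.03. The 35 proteasome genes had a median of 0.05. Among them *Psmb8*, a subunit of the immunoproteasome, was at 24.4, 31.1 and 38.2 FPKM in WT and 53.5, 36.6 and 66.5 FPKM in PCdel libraries (0.70, unadjusted limma p 0.0281, adjusted p 1.0).

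*Ubd*, which encodes the ubiquitin-like protein FAT10 loaded by *Ube2z*, had the largest difference of these lists. It was at 2.35, 4.49 and 2.94 FPKM in WT and 12.4, 4.51 and 18.5 FPKM in PCdel libraries, with QC8 just above the highest WT library. Its log2 fold change was 1.44 ± 0.46 (SE), with an unadjusted limma p of 0.0174 and an adjusted p of 1.0. The list of 11 ISG15 and interferon genes had a median log2 fold change of 0.07, with 8 above and 3 below 0. In it, *Trim25* was at 12.5, 12.2 and 24.7 FPKM in WT and 26.7, 29.2 and 24.9 FPKM in PCdel libraries. Its groups were apart only narrowly, with QC6 just under the lowest PCdel library. The log2 fold change of *Trim25* was 0.75, with an unadjusted limma p of 0.0263 and an adjusted p of 1.0. *Ube2l6*, the E2 for ISG15, was at -0.13.

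The 10 E1 genes, led by *Uba1*, had a median log2 fold change of 0.09 and a range of -0.01 to 0.20. Among 15 ubiquitin and ubiquitin-like genes the median was 0.01, and *Fau* had groups apart at -0.16. E2 and E2-like genes of other names had a median of -0.04 over 9 tested genes, with *Cdc34* at -0.07 and *Ufc1* at 0.01. The cell cycle list of 25 genes had a median of -0.02, with groups apart in *Anapc13* alone (-0.07). The lists of cullins, SUMO ligation and lysine 63 chains with DNA damage had medians of 0.06, 0.08 and 0.08. In the SUMO list *Pias1* had groups apart at 0.11. In the lysine 63 list of 14 tested genes, *Rnf20* and *Rnf40* had groups apart, both higher (14.3%, against 6% of all genes tested). RBR and HECT ligases had a median of 0.08 over 28 genes, with groups apart in 6 (21.4%, against 7.54% of all genes tested). Of these, 5 were higher (17.9%, against 6%) and *Rnf144b* was lower, and none of the 28 had an unadjusted limma p under 0.05.

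**Figure D5:**
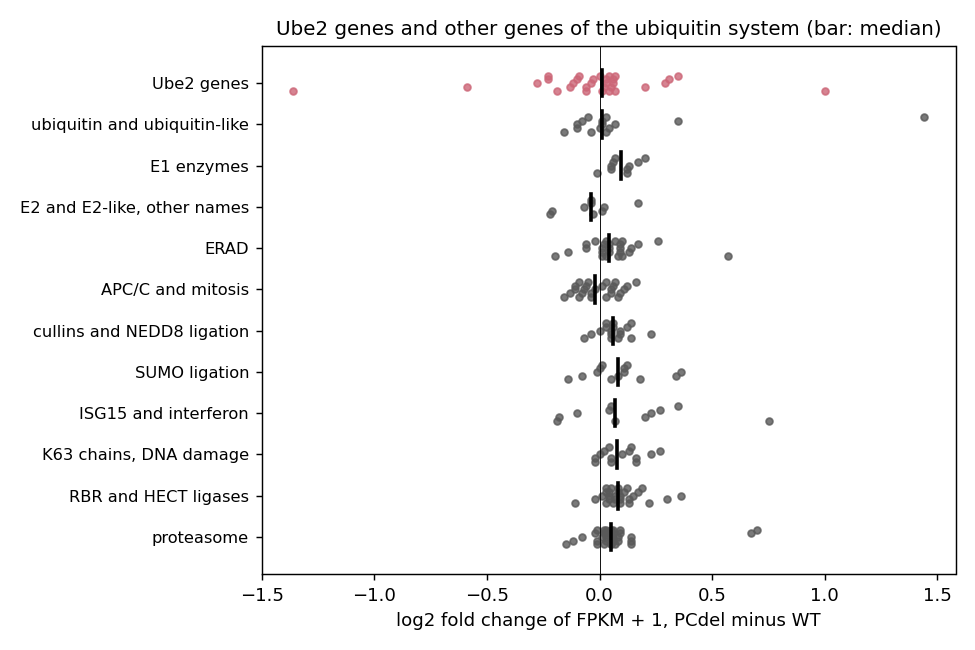
Log2 fold change of FPKM + 1 (PCdel minus WT) of tested genes, for 31 Ube2 genes (top row, red) and 11 lists of the ubiquitin system, with the median of each row as a vertical bar. Medians lie between -0.04 and 0.09, and *Ube2g2* (-1.36) lies below and *Ubd* (1.44) above every other gene shown.

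For markers of other cell types, limma called none at the adjusted threshold, and the lists themselves were not tested. All 7 PC markers had a log2 fold change below 0, with a summed FPKM of 3465 to 5205 in WT and 2208 to 3549 in PCdel adenomas. Of these, *Lyz1*, *Defa21* and *Defa22* had groups apart (42.9%, against 7.54% of all genes tested). None of the PC markers was at 0, so PC transcripts were still present. All 6 fibroblast markers had a log2 fold change above 0 (summed FPKM 185 to 277 and 235 to 377). The groups were apart in *Dcn* and *Pdgfra* (33.3%, against 7.54% of all genes tested). All 6 smooth muscle markers had a log2 fold change above 0 too (summed FPKM 211 to 346 and 314 to 448). So did all 5 tuft cell (46.1 to 54.8 and 45.8 to 84.2) and all 6 T cell markers (14.9 to 36.4 and 24.1 to 31.3). No groups were apart in these 3 lists. The mean FPKM of the T cell marker *Cd3g* was not higher, at 6.68 in WT and 6.63 in PCdel libraries. Over all genes tested, 63.1% had a log2 fold change above 0. Of 8 absorptive enterocyte markers, 7 had a log2 fold change below 0 (summed FPKM 10151 to 25357 and 9424 to 15414), with no groups apart. Among 6 macrophage and neutrophil markers, *Adgre1* was higher and *Lyz2* lower with groups apart (33.3%, against 7.54% of all genes tested). The 7 epithelial markers, *Krt8* and *Krt19* among them, were present in all libraries with a median log2 fold change of 0.04. The part of these cell types in the values of *Ube2g2*, *Ube2e3* and *Ube2a* was not tested.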

How the data were processed

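RNA-seq was analysed from 6 libraries, 3 per genotype. Libraries were made with the TruSeq kit and run on a HiSeq2500, and the study's methods give CLC Genomics Workbench 7 for alignment and MatLab for normalization, without settings. The program and annotation behind the tables are not given in the sources used here. The authors deposited, for each gene and library, FPKM, TPM and an unscaled mean read coverage. FPKM of entries with 1 gene identifier were summed, giving 48440 genes. Depth was taken as the most common ratio of coverage to FPKM among entries above a set minimum of FPKM. It came to 5.407 to 5.876 aligned gigabases, and 28.46% to 28.9% of those entries were at that ratio. No counts were used, so counting intervals were not derived.

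The 14240 genes whose FPKM averaged 1 or more were compared on log2(FPKM + 1), which understates changes of weakly expressed genes, by limma 3.58.1 in R 4.3.3 (lmFit, eBayes with trend, Benjamini-Hochberg adjustment, threshold 0.05). The fit was run on simulated data with changes larger than any in this family. Its power for changes of the size reported here was not tested. Transcripts and overlaps came from GENCODE M21 (GRCm38), which holds all 40 members by identifier, 36 with the same start and end. Shared 31-mers were counted on both strands.

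The members and lists were chosen with earlier results of these data known. Named were *Ube2g2*, *Ube2e3* and their relatives, members with an unadjusted p under 0.05 or groups apart, the 5 most abundant, and the 3 largest rises and falls. In the lists these were genes with an unadjusted p under 0.05 or groups apart, otherwise the 2 most abundant. All other members are given more briefly, and 1 member and 1 list gene that these rules take are not reported here. Alternatives are given in the closing section.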

Additional observations from a re-analysis of the deposited data

How the results depend on the processing

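The results were recomputed under 15 alternatives, of which scaled coverage was added after seeing the data. In all of them limma called 0 of the tested members other than *Ube2g2* and *Ube2e3* at the adjusted threshold, and *Ube2g2* was lower in PCdel adenomas (log2 fold change -1.61 to -1.20). *Ube2e3* stayed higher, at 0.68 with coverage per gigabase aligned and at 0.82 to 1.11 when 1 library was left out. The median of the other tested members stayed between -0.04 and 0.07. These were 30 members, but 32 without a filter on low values and 28 at a mean FPKM of at least 5. Over all genes, the 2 calls became 1 without a filter on low values and 1 after median centring, and 1 to 5 with 1 library left out. Leaving out QC4 gave 5. The 3 members with groups apart (9.38%, against 7.54% of all genes tested) include the selected pair. They became 5 after quantile normalization (15.6%, against 7.09%) and 5 after median centring (15.6%, against 7.65%). TPM gave 4 (12.5%, against 9.96%), as did scaled coverage (12.5%, against 7.37%). With 1 library left out there were 4 to 8, when smaller groups separate more easily. Leaving out QC5, QC3 or QC8 gave 4 (12.5%, against 13.9%, 15.7% and 12.7%). Leaving out QC4 gave 7 (21.9%, against 16.8% of all genes tested), QC6 8 (25%, against 23.7%) and QC10 7 (21.9%, against 20.4%). *Ube2e1* turned to -0.02 under median centring, to -0.01 with array weights and, with 1 library left out, ran from -0.03 (without QC6) to 0.08. *Ube2v1* turned to 0.71 with array weights and ran from -1.15 (without QC5) to 0.21 (without QC4) with 1 library left out, being above 0 also without QC6 or QC10. *Ube2g1* ran from -0.07 (without QC8) to 0.20. For settings that keep all libraries, the cause was not tested. *Ube2a* kept its direction (-0.72 to -0.38), with a limma adjusted p of 0.34 to 1.0. No paired analysis was possible because the labels do not say which libraries come from the same litter or cage. With 3 libraries per genotype, an exact permutation p cannot go below 0.1.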

Other observations

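Of the transcripts named as Ube2 pseudogenes, which the family's rule leaves out, 1 was listed at the level of its parent gene. *Ube2n-ps1* was at 31.97, 29.5 and 24.96 FPKM in WT and 26.7, 28.4 and 31.3 FPKM in PCdel libraries, with means of 28.8 FPKM in both. It shares 10% of the 31-base stretches of *Ube2n* (429 of 4275 over all its transcripts), whose mean was 24.2 FPKM. How reads were divided between *Ube2n* and *Ube2n-ps1* was not tested. *Ube2d-ps* was at 4.26 to 5.54 FPKM, and *Ube2l3-ps1* was at or near 0 in all libraries. The groups overlapped for each of these pseudogenes.

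The FPKM of several members was far above their scaled read coverage. The scaling makes the 2 equal in entries at the ratio from which depth was taken. FPKM over scaled coverage was 63.8 to 96.2 for *Ube2e2*, 13.7 to 17.8 for *Ube2d3* and 9.70 to 10.2 for *Ube2w*. This ratio was 1.0 for *Ube2z* and *Ube2n* in each library to 2 digits. GENCODE lists 16 transcripts of *Ube2d3*, 14 of *Ube2e2*, 7 of *Ube2w*, 6 of *Ube2n* and 1 of *Ube2z*, so a gene with several transcripts can also have a ratio of 1.0. *Ube2f* had a ratio of 8.01 in QC5, the library with its high FPKM, and of 3.99 to 5.17 in the other 5.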
